A study of Homo sapiens with 6 samples.

Results

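The genes described here make, store and break down di- and triacylglycerol, and they were followed in cells made to carry extra carboxylesterase 2, an esterase that can itself act as an acylglycerol lipase. The set is PNPLA2, ABHD5, LIPE, MGLL, ABHD6, LIPA, LPIN1, LPIN2, DGAT1 and DGAT2, chosen by name for their place in the pathway. Earlier results of these data were known when the set was chosen. All 10 were among the 14136 gene entries of the deposited table. Cal33 cells, a human line established from an oral squamous carcinoma, were transduced with lentivirus packaged in 293FT cells and kept under 0.5 ug/ml puromycin. The overexpressing cells carried FLAG-tagged CES2 in the plasmid pSin-EF2 (CES2, n = 3 libraries) and their controls the same plasmid without an insert (Vector, n = 3 libraries). The labels do not say whether the cells of a group were a pool or 1 clone, or whether the 3 libraries came from separate cultures, so p-values measure only the spread between these libraries, which may be technical. Abundance is given as TPM, transcripts per 1000000 after scaling by length. The table lists 1 transcript for each gene, and the span and exon number given with a gene are those of its listed transcript. Whether a value covers that transcript or the whole gene is not stated, which bears on every level and ratio between genes. A lower value in such bulk RNA can mean fewer expressing cells or less RNA per cell, which cannot be told apart.

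Triacylglycerol is built by adding acyl chains to a glycerol backbone. Lipins remove the phosphate from phosphatidate to leave diacylglycerol, and DGAT1 and DGAT2 add the last acyl chain. Breakdown runs in the other direction: PNPLA2 (ATGL), helped by its coactivator ABHD5 (CGI-58), takes off the first acyl chain, LIPE (hormone-sensitive lipase) acts on diacylglycerol, and MGLL and ABHD6 hydrolyse monoacylglycerol. LIPA cleaves triacylglycerol and cholesteryl esters inside lysosomes. Epithelial cells keep their triacylglycerol in small cytoplasmic lipid droplets, and diacylglycerol is also a precursor of membrane phospholipids.

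The lipases of the set and CES2 are serine hydrolases, and the coding stretch around the catalytic serine is shown because it is the feature that CES2 shares with them. The sequences were read from the transcripts that the deposited table lists, as given in GENCODE release 29 (GRCh38). Capitals mark the codon of the nucleophilic serine. On either side, 1 other codon lies between it and a glycine codon. In ABHD5, which lacks lipase activity of its own, the capitals mark the asparagine codon found at that place.
CES2: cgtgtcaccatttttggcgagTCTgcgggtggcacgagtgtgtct
PNPLA2: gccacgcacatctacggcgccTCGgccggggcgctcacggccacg
LIPE: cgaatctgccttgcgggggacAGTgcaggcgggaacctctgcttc
MGLL: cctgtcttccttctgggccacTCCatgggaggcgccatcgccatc
ABHD6: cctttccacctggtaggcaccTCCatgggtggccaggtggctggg
LIPA: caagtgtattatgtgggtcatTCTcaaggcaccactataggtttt
ABHD5: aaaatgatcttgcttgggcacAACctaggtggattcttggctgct

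The CES2 stretch lies in exon 5 of 12 (chr16:66940540-66940584, plus strand), that of PNPLA2 in exon 2 of 10 (chr11:819836-819880, plus strand) and that of ABHD6 in exon 6 of 10 (chr3:58270962-58271006, plus strand). The ABHD5 stretch lies in exon 4 of the 4 listed (chr3:43702517-43702561, plus strand) and the LIPE stretch in exon 7 of 10 (chr19:42406330-42406374, minus strand). The stretches of MGLL (chr3:127721146-127722456, exons 4 and 5) and LIPA (chr10:89225224-89226934, exons 5 and 6), both on the minus strand, are each split by an intron. Over 45 bases CES2 shared 24 with MGLL, 21 with ABHD6, 20 each with LIPE and LIPA, 18 with PNPLA2 and 17 with ABHD5. The monoacylglycerol lipases MGLL and ABHD6 shared 27 bases with each other. The stretches were compared without gaps and centred on the capitals, so these counts do not measure relatedness.

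The lipins use a different chemistry, and their coding stretch is shown because the set holds both LPIN1 and LPIN2. Capitals mark the codons of the catalytic motif, which holds aspartates and a threonine.
LPIN1: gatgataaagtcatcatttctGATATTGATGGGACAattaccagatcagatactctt
LPIN2: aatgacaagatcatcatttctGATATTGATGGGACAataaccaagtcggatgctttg

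The LPIN1 stretch lies in exons 17 and 18 of 22 (chr2:11804528-11805082, plus strand) and the LPIN2 stretch in exons 15 and 16 of 20 (chr18:2923849-2924441, minus strand), each across an intron. The motif was the same base for base, and 46 of 57 bases were identical over the whole stretch, motif included. Both stretches were located by the same peptide motif, so this count does not measure relatedness either.

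The CES2 transcript itself was at 2664, 1929 and 2294 TPM in CES2 cells, against 45.6, 41.9 and 44.9 TPM in Vector cells. On log2(TPM + 1) the difference was 5.66 (SE 0.18, limma, adjusted p = 7.375e-06). This checks the labels, and the values do not separate the construct from the endogenous gene (ENSG00000172831). The 5 acylglycerol hydrolases of the set (PNPLA2, LIPE, MGLL, ABHD6 and LIPA) summed to 302, 276 and 237 TPM in CES2 cells and to 332, 228 and 319 TPM in Vector cells. Per length, the CES2 transcript was thus at 8.83, 6.99 and 9.69 times the summed hydrolases in CES2 cells and at 0.137, 0.184 and 0.141 times in Vector cells. The numerator of this ratio is the overexpressed transcript, so its separation of the groups only repeats the difference in CES2. The summed hydrolases overlapped between the groups.

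**Figure D1:**
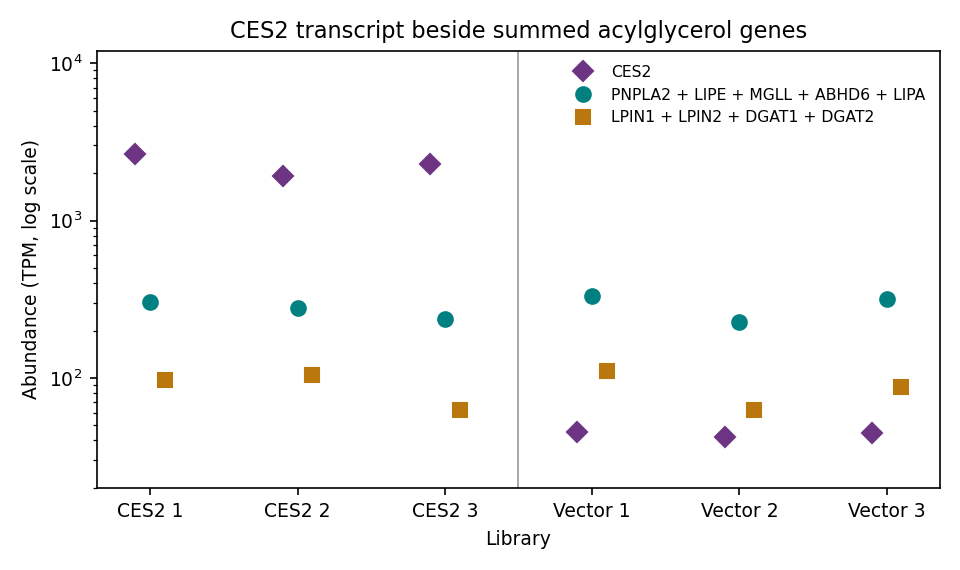
Abundance in TPM (log axis) of CES2, of the 5 summed hydrolases and of the 4 summed synthesis genes in each of the 6 libraries, CES2 libraries on the left. CES2 lies between 1929 and 2664 TPM in CES2 cells and near the bottom of the plot in Vector cells, while both sums cover like ranges in the groups.

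As a check of the line, all 10 squamous epithelial markers examined, among them KRT5, KRT14 and TP63, reached 1 TPM in every library and summed to 3972 to 5410.0 TPM in CES2 and 4042 to 5358 TPM in Vector. Of 6 adipocyte markers only PLIN1 was in the table, at 0.658 to 1.6 TPM in CES2 and 0.279 to 1.98 TPM in Vector. The fibroblast, leukocyte and endothelial markers examined held 1 each that reached 1 TPM in every library. They summed to 3.89 to 10.5, 5.97 to 8.82 and 11.2 to 20.5 TPM in CES2. In Vector these sums were 4.49 to 9.36, 6.51 to 12.3 and 10.2 to 25.8 TPM. No hepatocyte marker examined was in the table. Libraries did not sort by group: Pearson correlations of log2(TPM + 1) were 0.932 to 0.974 within groups and 0.927 to 0.978 between them. CES2 2 and Vector 1 deviated from their group means together across genes (r = 0.682, the highest of any CES2 and Vector pair). CES2 3 and Vector 1 deviated in opposite directions (r = -0.678). The deviations of a group constrain one another, so these values alone do not link the libraries. TPM keeps no read depth, so no counting interval can be given.

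No tested gene of the set differed detectably between CES2 and Vector cells. A gene was tested when it reached 1 TPM in at least 3 libraries, which 7 of the 10 did. LIPE, MGLL and DGAT2 did not. By limma on log2(TPM + 1), with Benjamini-Hochberg adjustment over all 12210 genes tested and a threshold of 0.05, 0 of the 7 passed, and the adjusted p was 0.9998 for each. Over all genes the share called was 0.00819%, which is 1 gene, CES2 itself. At an unadjusted p under 0.05 the count was 0 of 7, beside 1.09% of all genes. The groups overlapped in all 7, and they failed to overlap in 3.7% of all genes. The log2 fold changes of the 7, CES2 minus Vector, ran from -0.30 to 0.28 with a median of 0.09, beside a median of -0.06 over all genes tested. Two-sided exact permutation tests of the single genes gave p from 0.3 to 0.9, where 0.1 is the smallest that 3 against 3 libraries allow.

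**Figure D2:**
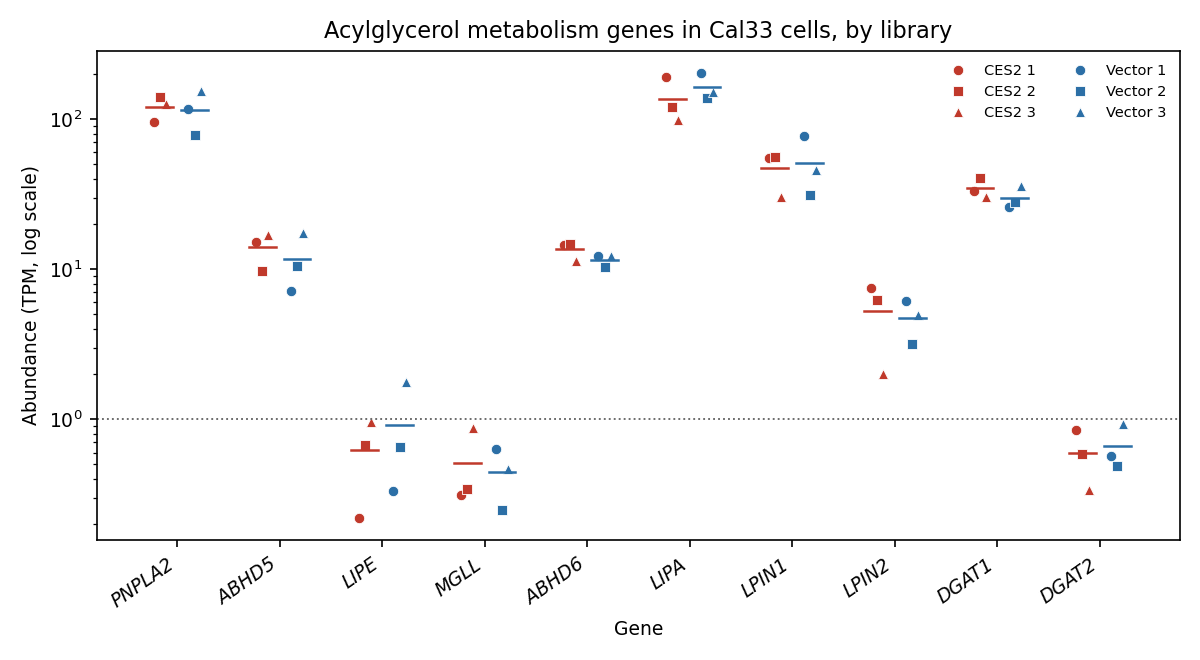
TPM (log axis) of each of the 10 genes in each library, CES2 (red) left of Vector (blue), with bars at the group means and a dotted line at 1 TPM. LIPE, MGLL and DGAT2 lie under the dotted line except LIPE in Vector 3 (1.77 TPM), and in every gene the red and blue points overlap.

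PNPLA2 (ENSG00000177666, chromosome 11 from 818902 to 825573, plus strand, 10 exons), the lipase that starts triacylglycerol breakdown, was at 96, 140.2 and 126 TPM in CES2 cells, against 116, 78.6 and 153 TPM in Vector cells. Both the highest and the lowest library belonged to Vector. The group means were 121 ± 22.5 TPM in CES2 and 116 ± 37.3 TPM in Vector (SD, n = 3 each). The log2 fold change was 0.09 (SE 0.27), and its 95% interval of -0.53 to 0.71 corresponds to 0.692-fold to 1.64-fold on the TPM + 1 scale. It was -0.03 without CES2 2 and -0.16 without Vector 2, 0.24 without CES2 1 and 0.31 without Vector 3, and -0.26 with library weights.

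ABHD5 (ENSG00000011198, chromosome 3 from 43690113 to 43702584, plus strand), the coactivator of PNPLA2, was at 15.1, 9.8 and 17 TPM in CES2 cells and at 7.18, 10.5 and 17.4 TPM in Vector cells. The third library of each group was the highest of its group. The log2 fold change was 0.28 (SE 0.34, 95% interval -0.50 to 1.07), and it was 0.01 without Vector 1, the lowest library, and 0.59 without Vector 3, the highest. PNPLA2 exceeded its coactivator in every library, at 6.35, 14.3 and 7.37 times in CES2 and 16.2, 7.47 and 8.8 times in Vector. The transcript listed for ABHD5 has 4 exons and 876 bases and is incomplete at the end of its coding part in GENCODE release 29. How that bears on the length scaling, and thus on levels set against other genes, is not given in the sources used here.

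LIPE (ENSG00000079435, chromosome 19 from 42401507 to 42427426, minus strand, 10 exons) was close to the lower end of the table. It was at 0.22, 0.678 and 0.96 TPM in CES2 cells, against 0.333, 0.651 and 1.77 TPM in Vector cells, so Vector 3 was the only library above 1 TPM. MGLL (ENSG00000074416, chromosome 3 from 127689062 to 127822882, minus strand, 8 exons), the main monoacylglycerol lipase of many tissues, was at 0.313, 0.341 and 0.869 TPM in CES2 cells and at 0.63, 0.248 and 0.465 TPM in Vector cells. No library reached 1 TPM for MGLL. With the filter on low values removed, the log2 fold change was -0.20 for LIPE (95% interval -0.90 to 0.50) and 0.05 for MGLL (95% interval -0.41 to 0.50). The scale of log2(TPM + 1) understates changes at such levels.

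ABHD6 (ENSG00000163686, chromosome 3 from 58237506 to 58294732, plus strand, 10 exons), the other monoacylglycerol lipase, was better represented, at 14.6, 14.8 and 11.3 TPM in CES2 cells and 12.2, 10.3 and 12.2 TPM in Vector cells. Of the 7 tested genes its values were the most even, with a residual SD of 0.171 log2 units, above only 14.6% of genes tested. Its means of 13.6 ± 1.97 TPM in CES2 and 11.6 ± 1.1 TPM in Vector (SD, n = 3 each) gave a log2 fold change of 0.21 (SE 0.22, 95% interval -0.29 to 0.71), which was 0.13 without Vector 2, 0.14 without CES2 2 and 0.32 without CES2 3. CES2 1 and CES2 2 lay above every Vector library, and CES2 3 lay below Vector 1 and Vector 3. In every library ABHD6 exceeded MGLL, at 46.8, 43.5 and 13 times in CES2 and 19.4, 41.7 and 26.2 times in Vector.

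LIPA (ENSG00000107798, chromosome 10 from 89213569 to 89252058, minus strand, 10 exons), the lysosomal acid lipase, was the most abundant of the 10. It was at 191, 119.9 and 98.1 TPM in CES2 cells, against 203, 138 and 152 TPM in Vector cells. CES2 2 and CES2 3 lay below all Vector libraries, while CES2 1 lay between Vector 1 and Vector 3. Means were 136 ± 48.4 TPM in CES2 and 164 ± 34 TPM in Vector (SD, n = 3 each). The log2 fold change of -0.30 (standard error 0.27, 95% interval -0.93 to 0.32) was the most negative of the 7. It was -0.57 without CES2 1 and -0.10 without CES2 3, and 0.12 with library weights.

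**Figure D3:**
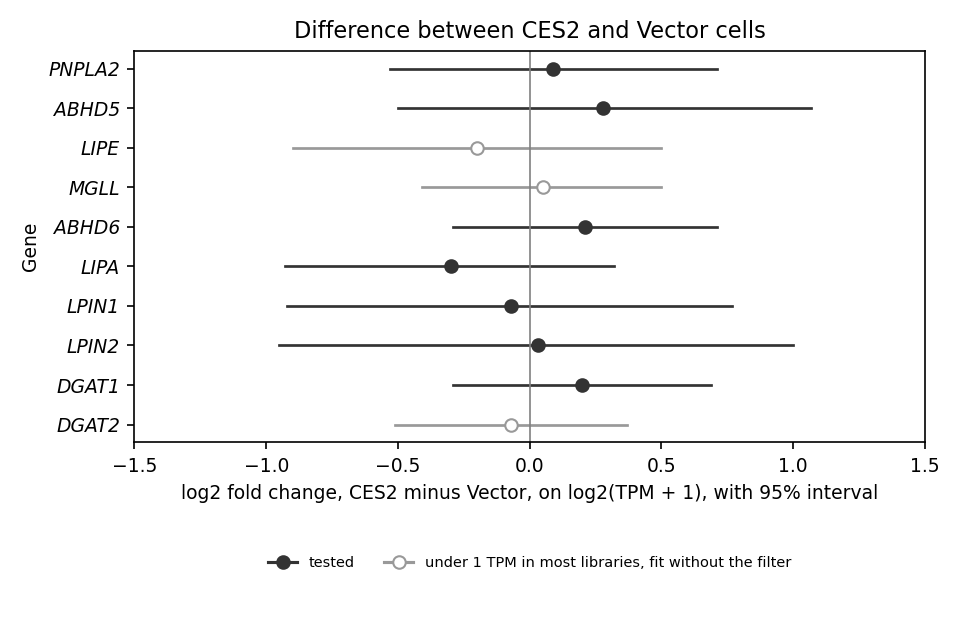
Log2 fold change of CES2 minus Vector on log2(TPM + 1) for each gene, with 95% intervals as horizontal lines. Filled points are the 7 tested genes and open points the 3 genes under the filter, and every interval crosses 0.

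Among the synthesis genes, LPIN1 (ENSG00000134324, chromosome 2 from 11677595 to 11824887, plus strand, 22 exons) was the more abundant lipin. It was at 55.3, 56.2 and 30.2 TPM in CES2 cells, against 77.5, 31 and 45.6 TPM in Vector cells. The libraries of one group were thus further apart, by up to 1.86-fold in CES2 and 2.5-fold in Vector, than the group means of 47.3 ± 14.8 TPM in CES2 and 51.4 ± 23.8 TPM in Vector (SD, n = 3 each). The log2 fold change was -0.07 (SE 0.37, 95% interval -0.92 to 0.77). It was 0.21 without CES2 3, 0.27 without Vector 1 and -0.38 without Vector 2, and 0.14 with library weights.

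LPIN2 (ENSG00000101577, chromosome 18 from 2916994 to 3011947, minus strand, 20 exons) was at 7.52, 6.28 and 2 TPM in CES2 cells and at 6.13, 3.16 and 4.93 TPM in Vector cells. The 2 libraries highest for LPIN2 and the lowest were all CES2 libraries. The log2 fold change was 0.03 (SE 0.43, 95% interval -0.95 to 1.00), the widest interval of the 7. On the TPM + 1 scale, changes of almost 2-fold either way lie within it. With 0.1 in place of 1 added to the TPM, the standard error was 0.53, so larger changes in TPM are not excluded. The log2 fold change was -0.26 without CES2 1, -0.15 without CES2 2 and -0.19 without Vector 2. It was 0.49 without CES2 3 and 0.45 with library weights. LPIN2 stood at 0.136, 0.112 and 0.0663 of the LPIN1 level in CES2 and at 0.0791, 0.102 and 0.108 in Vector.

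DGAT1 (ENSG00000185000, chromosome 8 from 144314584 to 144326910, minus strand, 17 exons), an acyltransferase of the endoplasmic reticulum, was at 33, 40.5 and 30.4 TPM in CES2 cells and at 26.1, 28.2 and 35.7 TPM in Vector cells. Every CES2 library lay above Vector 1 and Vector 2, and only CES2 2 lay above Vector 3. The means of 34.6 ± 5.25 TPM in CES2 and 30 ± 5.04 TPM in Vector (SD, n = 3 each) gave a log2 fold change of 0.20 (SE 0.21, 95% interval -0.29 to 0.69). It was 0.09 without CES2 2, 0.11 without Vector 1 and 0.33 without Vector 3. It was -0.004 without CES2 2 and Vector 1 together, the libraries that deviated together, a setting chosen after seeing the data. DGAT2 (ENSG00000062282, chromosome 11 from 75759512 to 75797276, plus strand), which makes triacylglycerol at lipid droplets and is unrelated to DGAT1 in sequence, was at 0.851, 0.589 and 0.336 TPM in CES2 cells and at 0.567, 0.49 and 0.932 TPM in Vector cells. It stayed under 1 TPM in all 6 libraries, at 0.0258, 0.0146 and 0.0111 of the DGAT1 level in CES2 and 0.0217, 0.0174 and 0.0261 in Vector. Without the filter its log2 fold change was -0.07 (95% interval -0.51 to 0.37). The transcript listed for DGAT2, with 6 exons and 747 bases, is also incomplete at the end of its coding part.

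The 4 synthesis genes summed to 96.7, 104 and 62.9 TPM in CES2 cells and to 110.3, 62.9 and 87.2 TPM in Vector cells, which overlap. By mean TPM over the 6 libraries the order was LIPA (150.2), PNPLA2 (118), LPIN1 (49.3), DGAT1 (32.3), ABHD5 (12.8), ABHD6 (12.6), LPIN2 (5), LIPE (0.769), DGAT2 (0.628) and MGLL (0.478). The ranges of LIPA and PNPLA2 overlapped, and each was the higher in 3 libraries. LPIN1 and DGAT1 also overlapped, as did ABHD5 and ABHD6, and LIPE, DGAT2 and MGLL. No library reversed PNPLA2 above LPIN1, DGAT1 above ABHD5, ABHD6 above LPIN2 or LPIN2 above LIPE. LIPA was above 89.9% and LPIN2 above 13.6% of the genes tested in mean TPM.

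The tested genes differed in how much they varied between libraries of the same group. The residual SD of LPIN2 was 0.638 log2 units, above 90.3% of genes tested, that of LPIN1 was 0.579 (87%) and that of ABHD5 0.498 (80%). PNPLA2 at 0.392 and LIPA at 0.4 lay nearer the middle, while DGAT1 was at 0.218 (27%). Both lipins and LIPA were lowest in CES2 3, at -0.61, -0.91 and -0.57 log2 units from the mean of each gene. Vector 1 was highest for LPIN1, at 0.72, and for LIPA, at 0.47, and it was lowest for ABHD5, at -0.70. In Vector 2 all 7 genes were below their mean, with a median of -0.25, where the median of all genes tested was -0.086. The median of the 7 was 0.24, 0.26 and -0.13 in CES2 1, 2 and 3 and 0.01, -0.25 and 0.07 in Vector 1, 2 and 3, so CES2 3 lay among the Vector libraries. Over all genes tested the medians were -0.001, -0.024 and -0.049 in CES2 1, 2 and 3. In Vector 1, 2 and 3 they were 0.039, -0.086 and 0.144, so in Vector 3 the 7 genes lay below the median of all genes.

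**Figure D4:**
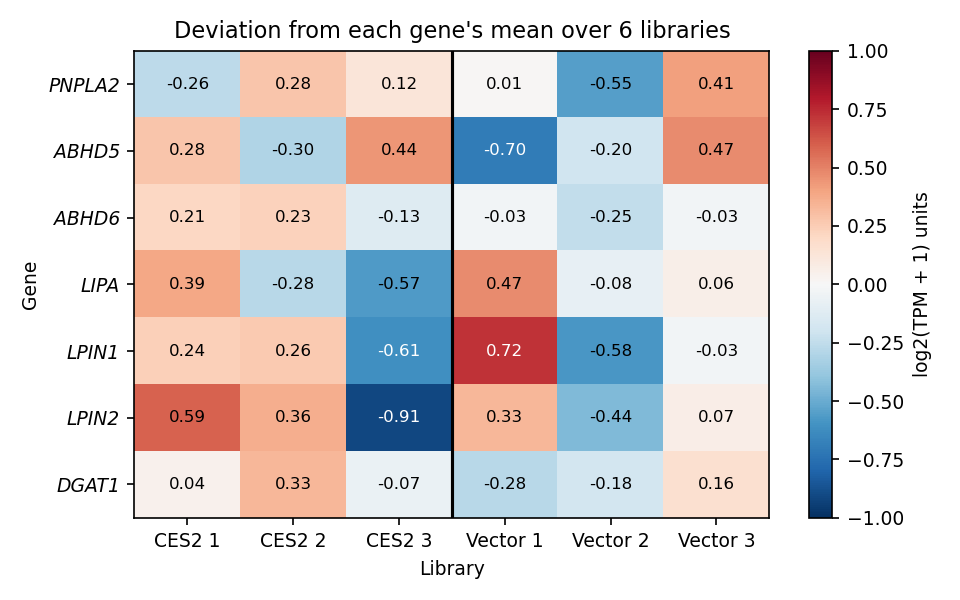
Deviation of log2(TPM + 1) from each gene's mean over the 6 libraries for the 7 tested genes, with CES2 libraries left of the black line and Vector libraries right of it. CES2 3 is low for LIPA, LPIN1 and LPIN2, and Vector 2 is below 0 in every row.

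The surrounding glycerolipid pathway was read from 6 lists, which hold 92 further genes. They were drawn up from textbook knowledge, with earlier results of these data known. Of these, 70 were in the table and 63 were tested. By limma 0 of the 63 passed the adjusted threshold, 25 lay above and 38 below 0, and the median log2 fold change was -0.04. Over all genes tested 4430 lay above and 7780 below 0, with a median of -0.06. A single gene had an unadjusted p under 0.05, beside 1.09% of all genes.

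That gene was AGPAT3, an acyltransferase that makes phosphatidate, the substrate of the lipins. It was at 40.8, 37.9 and 40.1 TPM in CES2 cells, against 50.5, 69.3 and 52 TPM in Vector cells. Every CES2 library lay below every Vector library, as in 2.63% of all genes tested. The log2 fold change was -0.51 (SE 0.19, limma, unadjusted p = 0.0304, adjusted p = 0.9998, exact permutation p = 0.1). No gene of the lists had an unadjusted p under 0.05 without CES2 1, CES2 2 or Vector 2, with the replicate block, or after median or quantile rescaling. The other enzymes of the steps from glycerol 3-phosphate to phosphatidate had log2 fold changes of at most 0.23, as for AGPAT5, with -0.28 for AGPAT4. AGPAT2 and AGPAT1, the most abundant of them at 139 and 59.8 TPM in CES2 and 139.5 and 58.7 TPM in Vector, were at -0.001 and 0.03.

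Of the phosphatidate phosphatases and lipin regulators, 9 were tested, both lipins and DGAT1 included, and 0 passed. CTDNEP1, the phosphatase that dephosphorylates lipins, was at 106, 144 and 119 TPM in CES2 and at 90.1, 96.8 and 116 TPM in Vector (log2 fold change 0.28, standard error 0.19). LPIN3, the remaining lipin, averaged 27.4 ± 6.62 TPM in CES2 and 29.8 ± 4.66 TPM in Vector (SD, n = 3 each; log2 fold change -0.13). It was thus more abundant per length than LPIN2 and less so than LPIN1. PLPP1 and PLPP2, membrane lipid phosphate phosphatases, had log2 fold changes of 0.21 and 0.09.

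None of the 11 tested diacylglycerol users passed either. The diacylglycerol kinases DGKA, DGKZ and DGKQ, which turn diacylglycerol back into phosphatidate, had log2 fold changes of -0.18, 0.05 and -0.11, and CHPT1, a choline phosphotransferase, had 0.23. DGKA was at 88.8 TPM in CES2 2 and at 101 TPM in Vector 1, the libraries that deviated together, and between 38.7 and 53.1 TPM in the other 4.

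Of 14 tested lipases in the broader list, PNPLA2, ABHD6 and LIPA included, 7 lay above and 7 below 0. ABHD12, a lysophosphatidylserine lipase that can also hydrolyse monoacylglycerol, averaged 143 ± 23.7 TPM in CES2 and 127 ± 10.5 TPM in Vector (SD, n = 3 each; log2 fold change 0.15), above ABHD6 and MGLL. PNPLA3 and PNPLA7, relatives of PNPLA2, had log2 fold changes of -0.31 and -0.50, with standard errors of 0.45 and 0.40. CEL, the bile salt-stimulated lipase known from pancreas and milk, was at 66.1, 46.9 and 11.3 TPM in CES2 and at 58.1, 25.3 and 39.1 TPM in Vector. Its residual SD was above 98.1% of genes tested, its log2 fold change of -0.22 had a standard error of 0.60, and its mean TPM, 41.4 in CES2 and 40.9 in Vector, lay the other way. A near-identical pseudogene of CEL can share its reads, so these values are uncertain.

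Lipid droplet coat genes and regulators of lipolysis, ABHD5 included, showed 5 of 14 tested above 0 and 9 below, with 0 past the threshold. PLIN2 and G0S2 of this list had no entry, so their levels are unknown. PLIN3 and AUP1 were the most abundant of the tested genes of the list. In CES2 they were at 122 ± 36.3 and 198 ± 61.2 TPM (SD, n = 3 each). In Vector they were at 109 ± 32.3 and 179 ± 42.2 TPM (SD, n = 3 each). HILPDA, an inhibitor of PNPLA2, was at 117, 68.8 and 34.3 TPM in CES2 and at 62.7, 41 and 39.9 TPM in Vector, so the CES2 libraries spanned the Vector range on both sides (log2 fold change 0.47, standard error 0.41). SPAST and LDAH, droplet-associated proteins, had log2 fold changes of -0.43 and -0.31. Of 13 tested genes of fatty acid activation and uptake, 3 lay above and 10 below 0, with a median of -0.10, which was -0.04 after median or quantile rescaling. DBI, the acyl-CoA binding protein, and FABP5, a fatty acid binding protein of squamous epithelium, were at 430.3 and 238 TPM in CES2 and at 451 and 240.0 TPM in Vector. ACBD3, ACSL5 and SLC27A2 had log2 fold changes between -0.23 and -0.17.

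**Figure D5:**
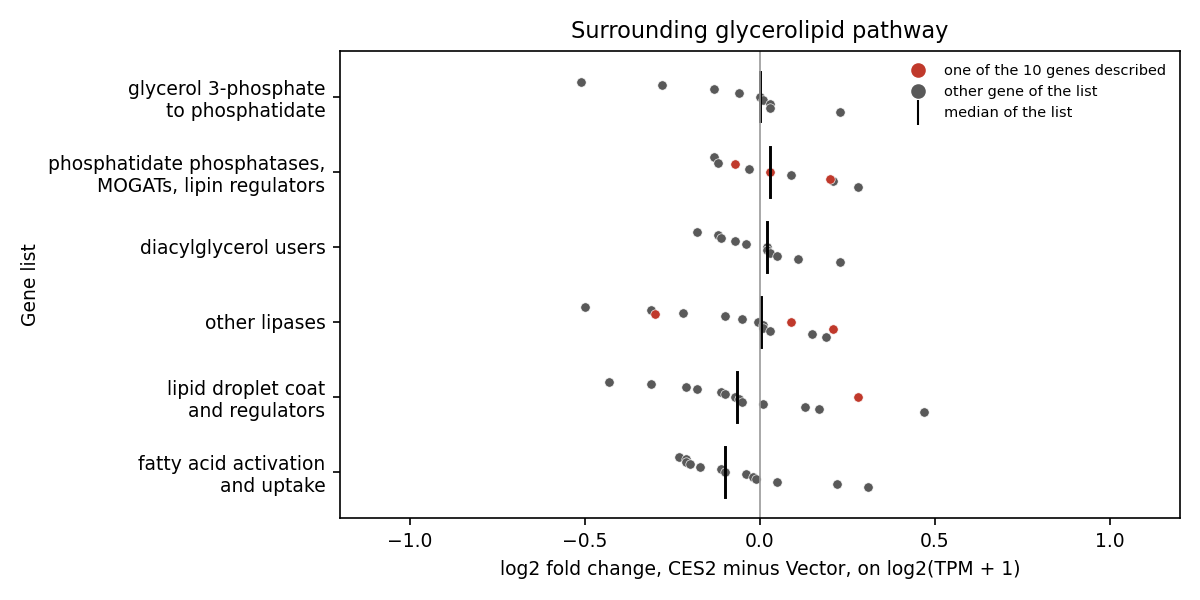
Log2 fold change of CES2 minus Vector for each tested gene of the 6 pathway lists, with red points for genes of the set described and a black bar at the median of each list. The medians lie between -0.10 and 0.03, and the points of every list fall on both sides of 0.

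A missed threshold does not show equal levels. Parts of the listed exons overlap other genes in GENCODE release 29, and whether strand was used in counting is not given in the sources used here: 332 bases of PNPLA2 with AP006621.1, 170 of ABHD5 with ANO10, 131 of LIPE with LIPE-AS1, 253 and 115 of LPIN2 with AP000919.2 and AP000919.4, and 139 of DGAT1 with HSF1, all on the opposite strand, and 444 and 7 of DGAT1 with AC233992.1 and MIR6848 on the same strand.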

How the data were processed

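RNA of 3 CES2 and 3 Vector libraries was extracted with Trizol, depleted of ribosomal RNA and made into strand-marked libraries, per the labels' protocols. The deposited values are TPM, one row per gene, inferred from columns that sum to 999804 to 999893; the authors' header names no unit. HISAT2 2.1.0, StringTie 1.3.3, edgeR 3.0.8, hg38 and GRCh38 are named, per the submitters' processing notes, without their roles. The sources used here give neither the annotation nor the filters. TPM keeps no depth, and a change in abundant transcripts shifts the TPM of the others. Blank cells (607 entries in at least 1 library) were read as 0, and 20 symbols turned into dates were restored from gene identifiers.

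A gene entered the fit when 3 or more libraries reached 1 TPM. The fit used limma 3.58.1 (R 4.3.3, variance trend, group as the only term) on log2(TPM + 1), and p-values were adjusted over all genes tested. Standard errors and 95% intervals come from that fit. The residual SD is the pooled SD within groups. The fit was tested on simulated data in which libraries varied independently. That test does not cover libraries that deviate together, as CES2 2 and Vector 1 did. Python 3.11.15, pandas 2.3.3 and matplotlib 3.10.9 read and plotted the tables. The genes and lists were chosen with earlier results of these data known. Named pathway genes are up to 3 of each list with the smallest unadjusted p and up to 2 with the highest mean TPM. Alternatives covered left-out libraries, the replicate block, scaling, filters, pseudocounts, blank cells, the trend and library weights.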

Additional observations from a re-analysis of the deposited data

How the results depend on the processing

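In none of the 18 alternatives did any of the 7 tested genes, or any tested gene of the pathway lists, pass the adjusted threshold (lowest adjusted p of the 7, 0.945). The number of genes passing over the whole table was 1, with 1 to 2 when single libraries were left out, 4 with library weights, 0 with the CES2 row removed, where CES2 itself has no value, and 2 without Vector 1 and CES2 2, a setting chosen after seeing the data. Signs of fold changes turned in some alternatives, that of LIPA (-0.30 in the main fit) included, and the cause was not tested. With single libraries left out, log2 fold changes ran from -0.16 to 0.31 for PNPLA2, -0.38 to 0.27 for LPIN1 and -0.26 to 0.49 for LPIN2. With library weights they were -0.26 for PNPLA2, 0.12 for LIPA and 0.14 for LPIN1. LPIN2 was at -0.004 with a pseudocount of 0.01. Without Vector 1 and CES2 2, PNPLA2 was at -0.0002, LPIN1 at 0.12 and DGAT1 at -0.004. ABHD5 and ABHD6 kept their sign in all 18. DGAT1 stayed above 0 with single libraries left out, from 0.09 to 0.33. The median log2 fold change ran from -0.16 to 0.24 for the 7 genes with single libraries left out. All 6 list medians changed sign in that way, from -0.09 to 0.10 for the steps to phosphatidate, -0.19 to 0.29 for phosphatases, -0.10 to 0.03 for diacylglycerol users, -0.17 to 0.16 for lipases, -0.23 to 0.09 for droplet genes and -0.26 to 0.07 for fatty acid genes. With library weights the median of diacylglycerol users was -0.06.

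Adding 1 TPM before taking ratios moved the mean DGAT2 to DGAT1 ratio to 0.0452 in CES2 and 0.0538 in Vector, the ABHD6 to MGLL ratio to 10.1 in CES2 and 8.74 in Vector, and the LPIN2 to LPIN1 ratio in Vector to 0.116.

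Deviations of same-numbered CES2 and Vector libraries correlated at 0.145, -0.524 and 0.375. CES2 2 correlated best with Vector 1 and CES2 3 with Vector 2 (0.426), while CES2 1 correlated best with its own number. Deviations from a group mean constrain one another, so these correlations cannot decide whether the replicate numbers pair the libraries. With the replicate block 1 gene passed over the whole table and 0 of the 7 tested genes did, as without it. Unknown depth limits what can be said of LIPE, MGLL and DGAT2.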
